A study of Mus musculus with 37 samples.

Results

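The genes described here are 41 genes of the integrated stress response: the transcription factor gene Atf4, its partner and target transcription factors, and the amino acid synthesis, amino acid transport, tRNA synthetase and secreted-factor genes that ATF4 is known to control. The list was drawn up by name, with no measured threshold, but with results of these libraries already known, so the counts of members below are a description and carry no separate weight. All 41 were among the 30892 genes of the cardiac fibroblast (CF) table and the 31053 genes of the single-cell tables, and 40 were among the 20158 genes of the neonatal rat ventricular myocyte (NRVM) table, where Nupr1 was not listed. By role they comprised 6 transcription regulators, 4 feedback and stress effectors, 3 secreted factors or receptors, 6 enzymes of amino acid synthesis, 4 enzymes of mitochondrial one-carbon and carbon metabolism, 6 amino acid transporters and 12 cytosolic tRNA synthetases.

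The CFs were wild-type mouse fibroblasts of the C57BL/6 strain, immortalized with the SV40 antigen. They were held in serum-free medium and then given medium conditioned by NRVMs for 24 or 48 h. The NRVMs that made that medium had received vehicle, the ectonucleotidase ENPP1, ATP, ENPP1 with ATP (ENPP1+ATP) or AMP, the product that ENPP1 makes from ATP, and each medium and time had 2 CF libraries, 20 in all. The second set held 15 libraries of wild-type Sprague-Dawley NRVMs collected at 24 h, 3 for each of the same 5 conditions, whose labels also call the treatment a conditioned medium. The study likewise reports p53-driven apoptosis genes of myocytes given ENPP1+ATP conditioned medium, without naming libraries there. Condition names for NRVMs below follow the labels and are not a statement that the compounds were added directly. The third set was single cells of the nonmyocyte fraction of injured C57BL/6 hearts 7 days after myocardial infarction, with 1 library from ENPP1CKO animals, in which tamoxifen and the fibroblast driver Col1a2CreERT delete floxed Enpp1 (ENPP1 fl/fl), and 1 from controls labelled wild type. The sources used here do not give the number of hearts behind either library, and the labels do not say that bulk replicates were separate cultures. The study states in general that its replicates are biological, and the p-values measure the spread between these libraries.

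The integrated stress response begins when a kinase that senses amino acid shortage, misfolded protein, viral RNA or haem deficiency phosphorylates the initiation factor eIF2. Most translation then slows while the Atf4 mRNA is translated more, and ATF4 binds composite C/EBP-ATF elements as a dimer with C/EBP-family partners. Its targets refill amino acid pools, charge tRNAs and, through CHOP (Ddit3), GADD34 (Ppp1r15a) and TRIB3, either restore translation or push cells towards death. RNA-seq measures the Atf4 transcript and its targets, not eIF2 phosphorylation or ATF4 protein.

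ATF4 is known to act through the composite element, so its letters were looked for in the promoters of the members, and promoters that hold a match are shown. The letters TGATGNAA, read on both strands, were searched in RefSeq promoters of the mouse build GRCm38.p6, from 250 bases before to 50 bases after each gene start. Of 32851 promoters of that length, 1304 (3.97%) held a match, and of 27025 gene symbols 1219 (4.51%) did. Of the 33 members with a promoter in that table, 12 held a match (36.4%). These were Nupr1, Trib3, Chac1, Vldlr, Asns, Pycr1, Pck2, Aars, Gars, Iars, Yars and Tars, so that 5 of the 8 tRNA synthetases with a promoter were among them. Atf4, Ddit3 and Gdf15, among the members described most below, had none in this window. Aldh1l2, Slc7a5, Slc7a3, Slc1a5, Cars, Wars, Nars and Lars had no entry. A match is only a run of letters, and a promoter without one may be bound elsewhere.

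The 5 promoters below, of 300 bases each and written 5′ to 3′ on the strand of the gene, belong to 2 feedback genes and 3 enzyme genes described below. Capitals mark the match. Trib3 lies at chr2:152344011-152344310 (minus strand) and its match begins at base 15 after the start. Chac1 lies at chr2:119350992-119351291 (plus strand), with the match at -193. Asns lies at chr6:7693160-7693459 (minus strand), with the match at -23. Pycr1 lies at chr11:120643699-120643998 (minus strand) and Pck2 at chr14:55540016-55540315 (plus strand), and in both the match begins at -103.
Trib3: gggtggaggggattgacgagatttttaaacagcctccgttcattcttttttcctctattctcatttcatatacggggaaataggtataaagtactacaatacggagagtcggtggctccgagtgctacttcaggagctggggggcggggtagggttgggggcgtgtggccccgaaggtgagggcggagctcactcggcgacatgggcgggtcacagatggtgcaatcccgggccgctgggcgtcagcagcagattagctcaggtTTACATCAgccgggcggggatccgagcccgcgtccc
Chac1: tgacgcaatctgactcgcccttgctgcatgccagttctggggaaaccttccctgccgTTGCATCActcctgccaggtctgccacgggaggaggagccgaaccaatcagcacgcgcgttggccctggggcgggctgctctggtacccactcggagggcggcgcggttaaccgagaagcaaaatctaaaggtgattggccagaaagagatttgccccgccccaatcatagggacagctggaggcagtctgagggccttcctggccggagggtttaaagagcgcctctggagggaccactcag
Asns: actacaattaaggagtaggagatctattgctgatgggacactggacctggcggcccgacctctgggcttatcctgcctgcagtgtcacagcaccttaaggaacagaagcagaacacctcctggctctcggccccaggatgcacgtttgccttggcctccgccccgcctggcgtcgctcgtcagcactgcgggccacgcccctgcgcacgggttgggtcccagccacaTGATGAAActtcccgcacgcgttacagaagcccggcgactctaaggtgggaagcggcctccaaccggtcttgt
Pycr1: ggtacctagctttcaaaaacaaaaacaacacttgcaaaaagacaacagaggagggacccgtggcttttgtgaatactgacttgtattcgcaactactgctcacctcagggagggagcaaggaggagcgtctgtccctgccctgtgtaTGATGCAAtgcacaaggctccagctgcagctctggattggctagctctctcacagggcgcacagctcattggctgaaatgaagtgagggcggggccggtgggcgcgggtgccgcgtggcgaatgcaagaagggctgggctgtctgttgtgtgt
Pck2: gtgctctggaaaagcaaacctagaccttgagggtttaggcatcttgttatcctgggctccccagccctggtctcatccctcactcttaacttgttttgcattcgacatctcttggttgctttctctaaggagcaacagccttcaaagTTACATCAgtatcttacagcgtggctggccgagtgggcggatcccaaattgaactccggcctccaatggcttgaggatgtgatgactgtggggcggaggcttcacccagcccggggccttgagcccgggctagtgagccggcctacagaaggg

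For Nupr1 and 4 synthetase genes, 30 bases around 1 match show the element in its context. The matches begin at -110 in Nupr1, -30 in Gars, 8 in Iars, 4 in Yars and -15 in Tars. Their promoters lie at chr7:126625421-126625720 (minus strand), chr6:55037751-55038050 (plus), chr13:49681880-49682179 (plus), chr4:129189653-129189952 (plus) and chr15:11399609-11399908 (minus).
Nupr1: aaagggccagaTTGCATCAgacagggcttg
Gars: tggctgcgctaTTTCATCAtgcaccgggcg
Iars: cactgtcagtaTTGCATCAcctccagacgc
Yars: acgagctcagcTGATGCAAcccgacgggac
Tars: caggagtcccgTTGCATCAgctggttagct

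CF libraries held 32184799 to 115824659 counts and NRVM libraries 13481389 to 16977980, and replicate libraries differed by more than sampling noise in all 25 pairs. The pair of CF libraries given AMP medium for 24 h stood furthest apart, with a chi-square of 33.5 per degree of freedom against 5.90 to 11.6 in the other CF pairs, and leaving out 1 library at a time left 4 members higher and 29 to 31 lower with that medium. After a filter on low counts, 17879 CF genes and 13461 NRVM genes were tested, including 41 and 39 members. Aldh18a1 was not tested in NRVMs because it had 1 count there in all. Values are counts per 1000000 counts (CPM) after TMM scaling, differences are log2 fold changes on counts with a standard error, and a gene was called at an adjusted p under 0.05 by edgeR's quasi-likelihood test over all genes of the table. Defining fibroblast markers were all present in the CFs (summed level 7220.4 to 7625 CPM with vehicle at 24 h, against 23.4 to 25.2 CPM for cardiomyocyte markers). NRVM libraries held both sets, at 30332 to 31319 CPM for cardiomyocyte and 24942 to 26324 CPM for fibroblast markers. In bulk libraries fewer cells of a type and less RNA per cell cannot be told apart.

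Most of the program was lower in CFs given ENPP1+ATP medium for 24 h, while a handful of its stress genes rose. Against vehicle medium, 34 of the 41 members were lower and 4 higher, in a comparison with 49.1% of all genes called, 23.9% higher and 25.3% lower. The median member differed by -0.50 on the log2 scale and the median gene by 0.00. In 38 members the libraries of the groups did not overlap, as in 76.2% of all genes tested. The 4 that rose were Ddit3, Ppp1r15a, Ddit4 and Gdf15, and Nupr1, Slc7a3 and Aars were not called.

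**Figure D1:**
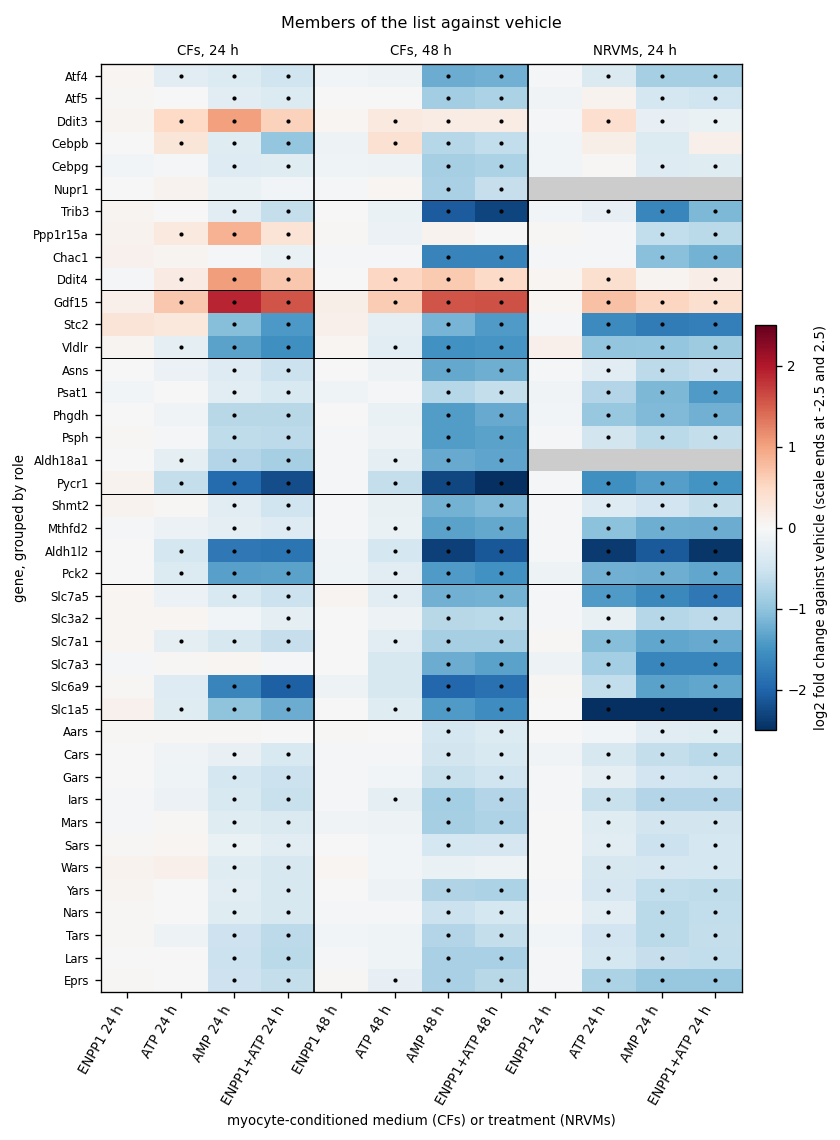
Log2 fold change of each of the 41 members (rows, grouped by role) against vehicle for each medium or treatment (columns) in CFs at 24 h and 48 h and in NRVMs at 24 h; black dots mark an adjusted p under 0.05, and grey cells were not tested. The ENPP1+ATP and AMP columns are blue for most rows in both cell types, and the ENPP1 columns carry no dot.

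Among the transcription regulators, Atf4 itself stood at 671 and 706 CPM with vehicle and 486 and 485 CPM with ENPP1+ATP medium. Both ENPP1+ATP libraries lay below both vehicle libraries, and the difference was -0.50 ± 0.06 (SE, adjusted p = 5.6e-07). Ddit3, which encodes the proapoptotic factor CHOP, moved the other way, from 134 and 145 with vehicle to 213 and 203 CPM with ENPP1+ATP medium, with no overlap. Its difference was 0.58 ± 0.06 (SE, adjusted p = 1.7e-08). Cebpb, a C/EBP-family regulator, fell from 88.6 and 77.1 with vehicle to 45.6 and 39.5 CPM with ENPP1+ATP medium (-0.97 ± 0.09 SE, adjusted p = 6.0e-08), the lowest value of this role. In all, 4 of the 6 regulators were lower and 1 was higher.

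The feedback and stress effectors were split. Trib3, a pseudokinase that restrains ATF4, stood at 121 and 128 CPM with vehicle and 74.7 and 90.3 CPM with ENPP1+ATP medium, a difference of -0.59 ± 0.09 (SE, adjusted p = 2.1e-05). Chac1, a glutathione-degrading enzyme, read 58.6 and 65.1 with vehicle and 54.7 and 55.2 CPM with ENPP1+ATP medium. This small difference of -0.17 ± 0.06 (SE, adjusted p = 0.033) did not hold everywhere: the adjusted p was 0.073 with DESeq2 and 0.058 with edgeR and DESeq2-type size factors, and 0.14, 0.11 and 0.36 without ENPP1+ATP replicate 1, ENPP1+ATP replicate 2 and vehicle replicate 2. Ppp1r15a, which encodes the phosphatase subunit that reverses eIF2 phosphorylation, rose from 77.3 and 78.7 with vehicle to 97.2 and 99.1 CPM with ENPP1+ATP medium (0.33 ± 0.06 SE, adjusted p = 3.7e-05). Ddit4, an inhibitor of mTORC1, rose from 74.2 and 73.3 with vehicle to 107 and 127 CPM with ENPP1+ATP medium (0.67 ± 0.06 SE, adjusted p = 2.5e-09).

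Of the secreted factors and the receptor, Gdf15, a stress-induced cytokine, had the largest rise of any member. It stood at 36.6 and 37.7 CPM with vehicle and 107 and 114 CPM with ENPP1+ATP medium (1.57 ± 0.08 SE, adjusted p = 8.3e-13). Vldlr, a lipoprotein receptor, went from 75.4 and 85.4 with vehicle to 25.3 and 30.3 CPM with ENPP1+ATP medium (-1.53 ± 0.08 SE, adjusted p = 8.4e-14). Stc2, a secreted glycoprotein, went from 9.09 and 10.8 with vehicle to 3.77 and 3.51 CPM with ENPP1+ATP medium (-1.44 ± 0.14 SE, adjusted p = 5.2e-09). Gdf15 was thus high, and Vldlr and Stc2 low, in both ENPP1+ATP libraries.

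All 6 enzymes of amino acid synthesis fell. Pycr1, which makes proline in mitochondria, had the largest drop of any member, from 31.6 and 35.2 with vehicle to 6.34 and 8.01 CPM with ENPP1+ATP medium (-2.21 ± 0.12 SE, adjusted p = 2.5e-13). Asns, asparagine synthetase, went from 241 and 254 with vehicle to 168 and 176 CPM with ENPP1+ATP medium (-0.53 ± 0.06 SE, adjusted p = 2.7e-08). Psat1 of the serine pathway changed least, at -0.38, and Phgdh, its first enzyme, differed by -0.69.

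The 4 enzymes of mitochondrial one-carbon and carbon metabolism fell as well. Aldh1l2, which oxidises formyl-tetrahydrofolate, read 473 and 492 CPM with vehicle and 130.3 and 143 CPM with ENPP1+ATP medium (-1.82 ± 0.11 SE, adjusted p = 4.8e-09). Pck2, mitochondrial phosphoenolpyruvate carboxykinase, read 245 and 255 with vehicle and 94.7 and 102 CPM with ENPP1+ATP medium (-1.35 ± 0.07 SE, adjusted p = 3.5e-13). Mthfd2 had the smallest drop of the role, at -0.32.

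Among the transporters 5 of 6 fell. Slc6a9, the glycine transporter, went from 126 and 124 with vehicle to 28.6 and 31.8 CPM with ENPP1+ATP medium (-2.05 ± 0.15 SE, adjusted p = 1.7e-07). Slc1a5, a glutamine transporter, went from 167 and 186 with vehicle to 72.3 and 77.9 CPM with ENPP1+ATP medium (-1.23 ± 0.07 SE, adjusted p = 1.3e-13). Slc7a5, the leucine transporter subunit, went from 392 and 415 with vehicle to 265 and 288 CPM with ENPP1+ATP medium (-0.55 ± 0.06 SE, adjusted p = 5.7e-08). In each of these the groups were apart. The cationic amino acid transporter Slc7a3 was low in every library, at 3.71 and 4.16 CPM with vehicle and 3.33 and 4.32 CPM with ENPP1+ATP medium, which overlap. Its difference was -0.03 ± 0.21 (SE, adjusted p = 0.92), with a 95% interval of -0.46 to 0.40.

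Of the 12 tRNA synthetases, which load amino acids onto tRNAs, 11 fell at 24 h. The leucyl enzyme gene Lars had the largest drop, -0.67 ± 0.06, and the alanyl enzyme gene Aars stood at 833 and 861 CPM with vehicle and 846 and 855 CPM with ENPP1+ATP medium, a difference of 0.01 ± 0.05 whose 95% interval runs from -0.09 to 0.10. The synthetase changes were smaller than those of Pycr1, Aldh1l2 and Slc6a9.

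**Figure D2:**
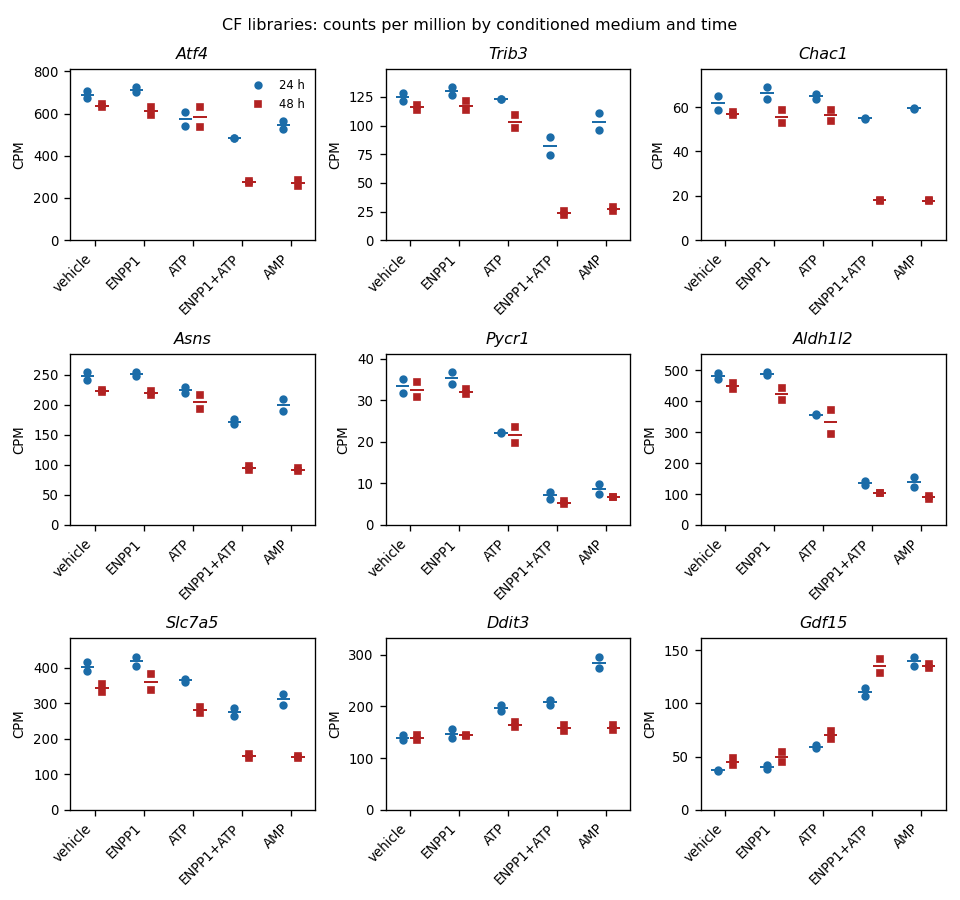
CPM (vertical axes, linear from 0) of 9 members in each CF library by conditioned medium, with circles for 24 h, squares for 48 h and a short line for the mean of the 2 libraries. Trib3 and Chac1 sit low with ENPP1+ATP and AMP medium at 48 h but closer to vehicle at 24 h, while Ddit3 is highest with AMP medium at 24 h.

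AMP medium gave a like picture at 24 h, and it shares its vehicle libraries with the comparison above. Against vehicle 32 members were lower and 4 higher (52.8% of all genes called, 25.3% higher and 27.5% lower), with a median of -0.30, and the higher ones were again Ddit3, Ppp1r15a, Ddit4 and Gdf15. Ddit3 reached 296 and 274 CPM (1.03 ± 0.06 SE, adjusted p = 4.3e-13) and Gdf15 135 and 144 CPM (1.91 ± 0.08 SE, adjusted p = 2.5e-14). Atf4 stood at 562 and 526 CPM (-0.34 ± 0.06 SE, adjusted p = 9.7e-05) and Pycr1 at 7.39 and 9.89 CPM (-1.93 ± 0.12 SE, adjusted p = 8.7e-13). Trib3 read 95.9 and 111 CPM, below both vehicle libraries, at -0.26 ± 0.09 (SE, adjusted p = 0.018). That call was lost without AMP replicate 1 (adjusted p = 0.19 by edgeR) and without vehicle replicate 2 (0.10). Chac1 was not called (-0.05 ± 0.06 SE, adjusted p = 0.51).

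Set directly against each other at 24 h, AMP medium left 11 members higher than ENPP1+ATP medium and none lower (6.25% of all genes called, 2.6% higher and 3.65% lower). DESeq2 also called no member lower, and 24 members had an unadjusted p under 0.05. Cebpb, at 45.6 and 39.5 CPM with ENPP1+ATP and 67.9 and 67.2 CPM with AMP medium, differed by 0.67 ± 0.09 (SE, adjusted p = 3.8e-04). Ppp1r15a, at 97.2 and 99.1 with ENPP1+ATP and 146 and 139 CPM with AMP medium, differed by 0.54 ± 0.06 (SE, adjusted p = 6.0e-06), and Ddit3 by 0.45 ± 0.06 (SE, adjusted p = 7.7e-05). The groups were apart for all of these. The count rests on few libraries: leaving out 1 library at a time gave 3 to 11 higher members.

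ATP medium without ENPP1 moved fewer members at 24 h. It left 5 higher and 8 lower (11.1% of all genes called, 4.77% higher and 6.32% lower), with a median of -0.01. The members that stood higher were Gdf15 at 57.6 and 60.7 CPM (0.67 ± 0.08 SE, adjusted p = 6.9e-06), Ddit3 at 203 and 190.4 CPM (0.50 ± 0.06 SE, adjusted p = 2.6e-06), and, by less, Cebpb (0.30), Ppp1r15a (0.23) and Ddit4 (0.21). Pycr1 had the largest drop, to 22.1 and 22.3 CPM (-0.59 ± 0.11 SE, adjusted p = 6.0e-04). Atf4 was also called lower with ATP medium (-0.26), and none of the 12 synthetases was called. Cebpb was thus called in the opposite direction to its fall with ENPP1+ATP medium. The calls of Cebpb, Ppp1r15a and Ddit4 were each lost without ATP replicate 1, at adjusted p of 0.30, 0.087 and 0.39 by edgeR. Leaving out 1 library at a time left 2 to 4 members higher and 2 to 6 lower. ENPP1 medium without ATP left no member called by edgeR or DESeq2 (0% of all genes called), and 1 member, Stc2, had an unadjusted p under 0.05.

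The comparison that holds ATP constant asks what ENPP1 added to it. ENPP1+ATP medium differed from ATP medium in the same direction as from vehicle, with 34 members lower and 2 higher at 24 h (43.9% of all genes called, 21.8% higher and 22.1% lower). Gdf15 (0.90 ± 0.08) and Ddit4 (0.46 ± 0.06) were the higher pair. Ddit3 did not separate these media, at 0.08 ± 0.06 with a 95% interval of -0.05 to 0.20. With AMP medium against ATP medium 30 members were lower and 4 higher (47.5% of all genes called, 22.9% higher and 24.6% lower), and Ddit3 was among the higher (0.53 ± 0.06). Against ATP medium, Atf4 was called lower with ENPP1+ATP medium but was not called with AMP medium.

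At 48 h the fall was deeper and wider. With ENPP1+ATP medium 36 members were lower and 3 higher (45.2% of all genes called, 20.8% higher and 24.4% lower) and with AMP medium the same counts were found (44% of all genes called, 21.1% higher and 22.9% lower), both against the same vehicle libraries. The median member differed by -0.79 and -0.84, and groups did not overlap for 39 and 40 of the 41 members (69.8% and 71.8% of all genes). Ppp1r15a and Wars were the members not called with either medium.

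Atf4 stood at 630.4 and 645 CPM with vehicle, 282 and 271 CPM with ENPP1+ATP and 284 and 259 CPM with AMP medium. All 4 libraries of the latter media lay under the lowest vehicle library, and the differences were -1.21 ± 0.07 (SE, adjusted p = 3.2e-13) and -1.23 ± 0.07 (SE, adjusted p = 1.9e-13). Trib3 went from 114 and 118 CPM with vehicle to 21.9 and 25.3 with ENPP1+ATP and 29.4 and 25.3 CPM with AMP medium (-2.30 ± 0.10 SE, adjusted p = 1.4e-12, and -2.09 ± 0.10 SE, adjusted p = 3.9e-12). Chac1 went from 56.3 and 57.7 CPM with vehicle to 17.7 and 18.1 with ENPP1+ATP and 17.9 and 17.9 CPM with AMP medium (-1.67 ± 0.07 SE, adjusted p = 9.0e-16, and -1.67 ± 0.07 SE, adjusted p = 7.4e-16). Both feedback genes, whose promoters are shown above, were therefore far below vehicle at 48 h. Asns went from 221 and 224 CPM with vehicle to 91.3 and 98.2 with ENPP1+ATP and 94.8 and 89.5 CPM with AMP medium (-1.23 ± 0.06 SE, adjusted p = 1.1e-14, and -1.27 ± 0.06 SE, adjusted p = 5.6e-15).

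Pycr1 had the largest drop with ENPP1+ATP medium at 48 h, from 30.7 and 34.3 with vehicle to 4.96 and 5.71 CPM with ENPP1+ATP medium (-2.61 ± 0.13 SE, adjusted p = 2.5e-14). Aldh1l2 went from 460.0 and 439 with vehicle to 104 and 102 CPM with ENPP1+ATP medium (-2.13 ± 0.11 SE, adjusted p = 1.2e-09) and Slc6a9 from 115 and 108 with vehicle to 32.5 and 28.3 CPM with ENPP1+ATP medium (-1.87 ± 0.15 SE, adjusted p = 5.0e-07). These were already far down at 24 h. Slc7a5, at 332 and 356 with vehicle and 146 and 156 CPM with ENPP1+ATP medium, differed by -1.19 ± 0.06 (SE, adjusted p = 9.3e-14), and Slc7a3, now at 5.30 and 5.35 with vehicle and 2.25 and 1.95 CPM with ENPP1+ATP medium, by -1.34 ± 0.22 (SE, adjusted p = 2.1e-05). Slc1a5 (-1.54 ± 0.07), Vldlr (-1.48 ± 0.08), Pck2 (-1.51 ± 0.07) and Stc2 (-1.42 ± 0.14) were likewise lower. All 6 transporters, all 6 amino acid enzymes, all 4 one-carbon and carbon enzymes and 11 of the 12 synthetases were called lower.

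The members that stood against this were Gdf15, Ddit4 and Ddit3. Gdf15 read 42.0 and 48.4 CPM with vehicle and 142 and 129 CPM with ENPP1+ATP medium (1.58 ± 0.08 SE, adjusted p = 6.5e-13). Ddit4 read 64.1 and 68.3 with vehicle and 91.4 and 92.3 CPM with ENPP1+ATP medium (0.47 ± 0.06 SE, adjusted p = 1.1e-06). Ddit3 read 134 and 145 with vehicle and 153 and 164 CPM with ENPP1+ATP medium (0.18 ± 0.06 SE, adjusted p = 0.016), a small excess that was not called without ENPP1+ATP replicate 2 (adjusted p = 0.16 by edgeR) or vehicle replicate 1 (0.20). With AMP medium it was 0.19 ± 0.06 (SE, adjusted p = 0.014) and likewise lost without AMP replicate 1 (0.11) or vehicle replicate 1 (0.18).

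With ATP medium at 48 h, 4 members were higher and 11 lower (7.83% of all genes called, 5.35% higher and 2.48% lower), and ENPP1 medium left none called by edgeR or DESeq2 (0% called, and no member with an unadjusted p under 0.05). The members higher with ATP medium were Gdf15 (0.63), Ddit4 (0.52), Cebpb (0.37) and Ddit3. Atf4 was 537 and 631 CPM with ATP medium (-0.13 ± 0.06 SE, adjusted p = 0.32), Trib3 97.5 and 109 CPM (-0.17 ± 0.09 SE, adjusted p = 0.35) and Chac1 53.7 and 58.7 CPM (-0.02 ± 0.06 SE, adjusted p = 0.94), none of them called. The ATP count rests on few libraries, since leaving out 1 at a time gave 2 to 3 higher and 2 to 11 lower members. Against ATP medium, ENPP1+ATP medium left 36 members lower and 1 higher (39.5% of all genes called, 18.2% higher and 21.3% lower) and AMP medium 36 lower and 2 higher (37.2% of all genes called, 18% higher and 19.2% lower). Gdf15 was higher in both of these comparisons, while Ddit4 and Ddit3 were called in neither. AMP and ENPP1+ATP medium did not differ in any member at 48 h by DESeq2 or by edgeR with the filter on low counts (0.162% of all genes called, 0.0895% higher and 0.0727% lower). There 7 members had an unadjusted p under 0.05, and without that filter 2 members were called lower with AMP medium.

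The change between the times was tested as the difference of the effects. Relative to its own vehicle, ENPP1+ATP medium had a lower effect at 48 h than at 24 h in 22 members and a higher one in 1 (30% of all genes called, 15.1% higher and 14.9% lower). AMP medium had a lower effect in 34 and a higher one in none (31.7% of all genes called, 17.3% higher and 14.4% lower), and DESeq2 called no member higher either. Vehicle medium itself differed between 48 h and 24 h in 3 members, all lower and none of them called once any 1 of the 4 vehicle libraries was left out (4.88% of all genes called, 1.68% higher and 3.2% lower): Slc7a5, Cars and Nars.

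With ENPP1+ATP medium members parted by how their effect moved with time. Trib3 (-1.71 ± 0.13 SE, adjusted p = 2.6e-08), Chac1 (-1.50 ± 0.09 SE, adjusted p = 3.0e-11) and Slc7a3 (-1.31 ± 0.31) had the largest further drop with ENPP1+ATP medium, followed by Mthfd2 (-0.96 ± 0.07), Asns (-0.70 ± 0.08 SE, adjusted p = 3.6e-07) and Atf4 (-0.70 ± 0.09 SE, adjusted p = 2.5e-06). The excess of Ddit3 (-0.39 ± 0.09, adjusted p = 9.5e-04 by edgeR) and Ppp1r15a (-0.32 ± 0.08) shrank. In contrast Pycr1 (-0.40 ± 0.18), Aldh1l2 (-0.31 ± 0.15), Slc6a9 (0.18 ± 0.21), Vldlr (0.05 ± 0.11), Stc2 (0.03 ± 0.20) and Gdf15 (0.01 ± 0.11) were not called, and most of their change was already present at 24 h. With AMP medium the effect was called lower at 48 h for 2 of these, Aldh1l2 (-0.55 ± 0.15 SE, adjusted p = 0.012) and Gdf15 (-0.33 ± 0.11 SE, adjusted p = 0.03). The Aldh1l2 call was lost without 24 h vehicle replicate 1 or 48 h AMP replicate 2, and the Gdf15 call without any 1 library other than 24 h AMP replicate 1 and 48 h vehicle replicate 1. Cebpb was the member whose effect with ENPP1+ATP medium was higher at 48 h (0.36 ± 0.13 SE, adjusted p = 0.048), a call that was lost without 24 h ENPP1+ATP replicate 2 (adjusted p = 0.21 by edgeR), 24 h vehicle replicate 1 (0.23), 48 h ENPP1+ATP replicate 1 (0.26), 48 h vehicle replicate 1 (0.15) or 48 h vehicle replicate 2 (0.078). With AMP medium its effect was lower at 48 h (-0.41 ± 0.13 SE, adjusted p = 0.02), a call lost without any 1 library other than 24 h vehicle replicate 1, 48 h AMP replicate 2 and 48 h vehicle replicate 1.

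**Figure D3:**
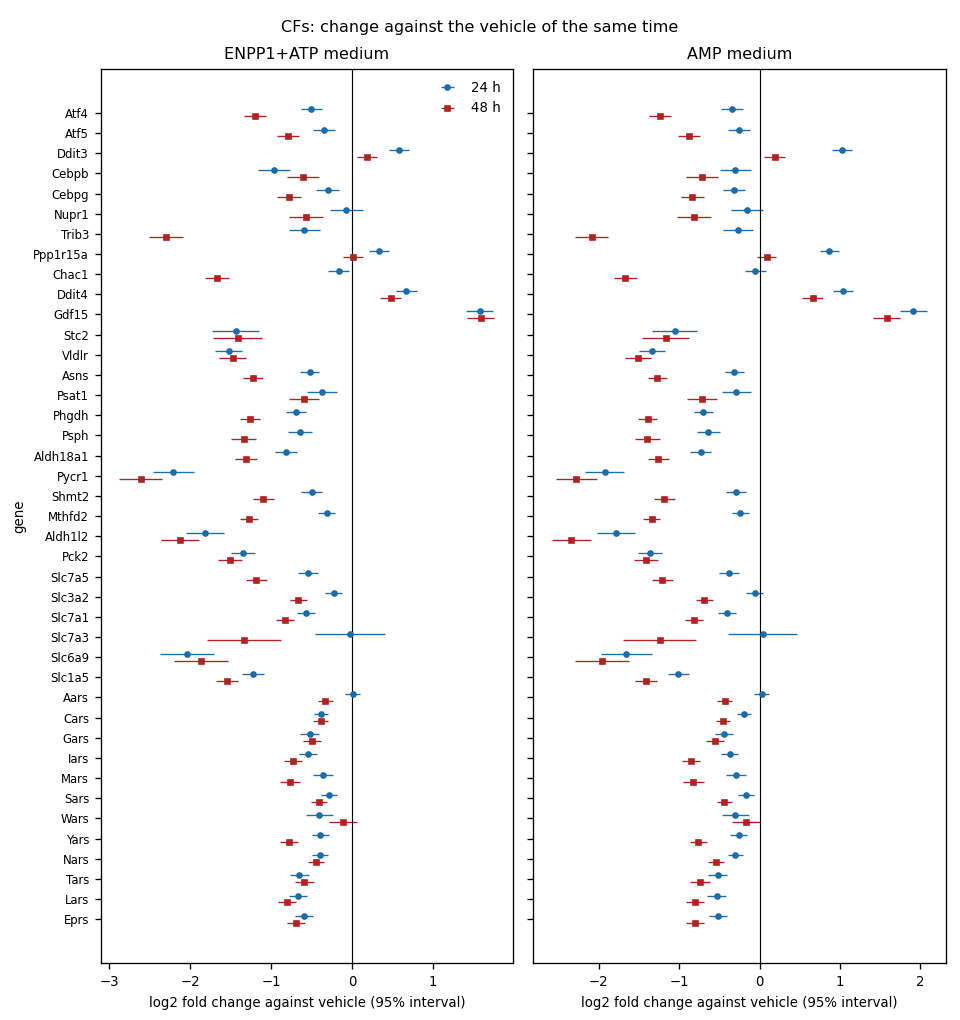
Log2 fold change against the vehicle of the same time, with its 95% interval, for the 41 members (rows) in CFs given ENPP1+ATP medium (left) or AMP medium (right), with blue circles for 24 h and red squares for 48 h. For Trib3, Chac1 and Slc7a3 the red squares lie well left of the blue circles, and for Gdf15, Vldlr and Stc2 the symbols nearly coincide with ENPP1+ATP medium.

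Genes of other kinds moved in the same CF libraries. Fibroblast markers summed to 7220.4 to 7625 CPM with vehicle, 3611 to 3707 CPM with ENPP1+ATP and 2831 to 3055 CPM with AMP medium at 24 h, and with ENPP1+ATP medium 8 of the 10 were called lower and 1 higher. Macrophage markers summed to 15.8 to 18.3 CPM with vehicle and 34.5 to 42.3 CPM with ENPP1+ATP and 58.7 to 61.8 CPM with AMP medium. A list of 18 dissociation and acute stress genes summed to 1619 to 1629 CPM with vehicle, 3084 CPM in both ENPP1+ATP libraries (15 higher, 0 lower) and 3844 to 4380.2 CPM with AMP medium. The 15 p53 targets, among them the members Gdf15 and Ddit4, summed to 1023 to 1077 CPM with vehicle, 3128 to 3219 CPM with ENPP1+ATP (14 higher, 1 lower) and 3785 to 3808 CPM with AMP medium. The p53 genes include Cdkn1a (1.97 ± 0.14), the cell cycle inhibitor, and Mdm2 (1.94 ± 0.07), which degrades p53. At 48 h the fibroblast markers summed to 7128 to 7541 CPM with vehicle, 3879.6 to 4096 CPM with ENPP1+ATP and 4077 to 4362 CPM with AMP medium, and the macrophage markers to 16.7 to 18.1, 73.1 to 83.9 and 77.9 to 88.5 CPM. In the same order, the acute stress genes then summed to 1553 to 1624, 2160.5 to 2219 and 2175 to 2199 CPM and the p53 targets to 1136 to 1297, 4528 to 4728 and 4675 to 4785 CPM. At 24 h the smooth muscle or pericyte markers summed to 860 to 948 CPM with vehicle medium. They summed to 476 to 500 CPM with ENPP1+ATP and 431 to 453 CPM with AMP medium. At 48 h their sums were 843 to 927, 781 to 826 and 820 to 827 CPM, in that order. The part of all these genes in the results for the members was not tested.

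In NRVMs nearly the whole list was lower under the same conditions. With ENPP1+ATP 36 of the 39 tested members were lower and 2 higher (56% of all genes called, 28.6% higher and 27.4% lower), and with AMP 36 were lower and 1 higher (57.2% of all genes called, 29.2% higher and 28% lower), both against the same 3 vehicle libraries. The medians were -0.67 and -0.68. Gdf15 was higher with both, Ddit4 with ENPP1+ATP. All 12 synthetases, all 6 transporters, all 4 one-carbon and carbon enzymes and all 5 tested amino acid enzymes fell with ENPP1+ATP.

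Atf4 stood at 508, 513 and 519.5 CPM with vehicle, 286, 286 and 296 CPM with ENPP1+ATP, 286, 288 and 291 CPM with AMP and 398, 387 and 407 CPM with ATP. The ENPP1+ATP and AMP libraries were lowest and the ATP libraries lay between them and vehicle. The differences from vehicle were -0.83 ± 0.04 (SE, adjusted p = 2.8e-22), -0.83 ± 0.04 (SE, adjusted p = 3.1e-22) and -0.37 ± 0.04 (SE, adjusted p = 2.4e-11), and ENPP1+ATP differed from ATP by -0.46 ± 0.04 (SE, adjusted p = 7.1e-13). Asns showed the same order, with 170.4, 167 and 172 CPM for vehicle, 119, 104 and 119 for ENPP1+ATP, 105, 114 and 105 for AMP and 142, 132 and 144 for ATP (-0.57 ± 0.05 for ENPP1+ATP and -0.28 ± 0.05 for ATP).

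Trib3 and Chac1 separated ENPP1+ATP from ATP. Trib3 read 70.1, 74.2 and 76.1 CPM with vehicle, 35.4, 30.7 and 35.1 with ENPP1+ATP, 23.9, 27.1 and 19.8 with AMP and 60.8, 62.9 and 67.9 with ATP. It was -1.12 ± 0.08 (SE, adjusted p = 5.4e-14) with ENPP1+ATP, -1.63 ± 0.08 (SE, adjusted p = 1.8e-17) with AMP and -0.20 ± 0.07 (SE, adjusted p = 0.015) with ATP, and the last call was lost without ATP replicate 1 (adjusted p = 0.071 by edgeR), ATP replicate 2 (0.051) or vehicle replicate 3 (0.066). Chac1 read 30.8, 36.7 and 38.8 CPM with vehicle, 17.3, 14.8 and 15.1 with ENPP1+ATP and 34.9, 31.8 and 36.4 with ATP, at -1.18 ± 0.09 (SE, adjusted p = 3.1e-15) and -0.04 ± 0.08 (SE, adjusted p = 0.66). The ATP libraries of Chac1 lay inside the vehicle range.

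Slc1a5, Aldh1l2, Pycr1 and Stc2 fell by about as much in the ATP condition as with ENPP1+ATP. Most transporters did not, since 5 of the 6 were lower with ENPP1+ATP than with ATP. So were 3 of the 5 tested enzymes of amino acid synthesis and 2 of the 4 one-carbon and carbon enzymes. Slc1a5 had the largest change of any member in NRVMs, from 60.6, 65.2 and 63.0 CPM with vehicle to 9.72, 9.52 and 8.79 with ENPP1+ATP, 9.34, 10.5 and 11.7 with AMP and 8.58, 10.6 and 13.9 with ATP (-2.75 ± 0.10 SE, adjusted p = 1.4e-23, -2.58 ± 0.10 and -2.51 ± 0.09). Aldh1l2 went from 79.7, 81.3 and 83.4 CPM to 14.0, 14.8 and 16.4 with ENPP1+ATP and 15.1, 17.2 and 14.4 with ATP (-2.43 ± 0.07 SE, adjusted p = 9.5e-30, and -2.39 ± 0.07). ENPP1+ATP and ATP did not differ at the threshold for either gene, with 95% intervals of -0.48 to 0.00 for Slc1a5 and -0.21 to 0.13 for Aldh1l2. Pycr1 read 18.6, 19.9 and 20.9 CPM with vehicle, 7.68, 6.07 and 7.30 with ENPP1+ATP and 8.25, 6.23 and 6.11 with ATP (-1.50 ± 0.12 and -1.53 ± 0.12), and Stc2 read 20.9, 18.8 and 20.9 with vehicle, 6.34, 5.56 and 6.72 with ENPP1+ATP and 7.33, 6.71 and 5.98 CPM with ATP (-1.70 ± 0.12 and -1.60 ± 0.11).

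Other members showed steps between ATP and ENPP1+ATP. Slc7a5 read 259.7, 267 and 266 CPM with vehicle, 74.4, 75.4 and 79.3 with ENPP1+ATP and 96.0, 101 and 100.2 with ATP (-1.79 ± 0.04 SE, adjusted p = 5.2e-32, and -1.41 ± 0.04). Slc7a3 read 25.9, 27.2 and 31.6 with vehicle, 10.6, 7.86 and 8.92 with ENPP1+ATP and 16.6, 14.8 and 15.3 CPM with ATP (-1.63 ± 0.11 and -0.86 ± 0.10), and Psat1 89.5, 91.8 and 84.3 with vehicle, 33.5, 34.6 and 31.9 with ENPP1+ATP and 53.7, 50.8 and 54.9 CPM with ATP (-1.41 ± 0.06 and -0.74 ± 0.06). In each, no library of the 3 conditions overlapped another condition. Among the synthetases Eprs, the glutamyl-prolyl enzyme gene, had the largest drop with ENPP1+ATP (-0.95 ± 0.04) and Aars the smallest (-0.31 ± 0.04).

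In the ATP condition 30 NRVM members were lower and 3 higher (59.9% of all genes called, 30.2% higher and 29.7% lower), with a median of -0.40. ENPP1+ATP against ATP left 29 lower and none higher (27.5% of all genes called, 14.1% higher and 13.5% lower), and DESeq2 also called none higher. AMP against ATP left 31 lower and 1 higher (33.1% of all genes called, 17% higher and 16.1% lower). AMP against ENPP1+ATP left 3 higher, Psat1 (0.28 ± 0.07), Aldh1l2 (0.33 ± 0.08) and Slc7a5 (0.18 ± 0.05), and 1 lower, Trib3 (-0.51 ± 0.09), with 9.66% of all genes called, 5.81% higher and 3.85% lower. The Slc7a5 call was lost without AMP replicate 3 (adjusted p = 0.057 by edgeR) and without ENPP1+ATP replicate 1 (0.050). The ENPP1 condition left no member called by edgeR or DESeq2 (0% of all genes called), and 2 had an unadjusted p under 0.05.

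The stress genes of the list did not all behave in NRVMs as in CFs. Gdf15 read 73.2, 69.0 and 90.7 CPM with vehicle, 104, 90.9 and 113 with ENPP1+ATP and 133, 126 and 127 with ATP (0.41 ± 0.11 SE, adjusted p = 0.0063, and 0.73 ± 0.10 SE, adjusted p = 6.8e-05). Ddit3 read 68.3, 62.5 and 73.9 CPM with vehicle and 63.7, 57.2 and 60.4 with ENPP1+ATP, groups that overlap (-0.17 ± 0.06 SE, adjusted p = 0.021), and 91.1, 97.8 and 83.2 with ATP, above all vehicle libraries (0.41 ± 0.06 SE, adjusted p = 4.6e-07). The lower value with ENPP1+ATP was not called without ENPP1+ATP replicate 2 (adjusted p = 0.12 by edgeR), ENPP1+ATP replicate 3 (0.051) or vehicle replicate 3 (0.17). Ppp1r15a read 105, 99.3 and 121 CPM with vehicle and 69.2, 65.3 and 69.8 with ENPP1+ATP (-0.67 ± 0.06 SE, adjusted p = 7.2e-11), a fall where CFs at 24 h showed a rise. Ddit4 read 55.8, 56.1 and 54.6 with vehicle and 57.0, 65.7 and 65.2 CPM with ENPP1+ATP (0.18 ± 0.06 SE, adjusted p = 0.015), and this call was lost without ENPP1+ATP replicate 2 (0.086) or 3 (0.073). With ATP the Ddit4 rise was larger (0.39), and Ddit4 was called lower with ENPP1+ATP than with ATP (-0.22). Cebpb was not called with ENPP1+ATP (0.13 ± 0.16 SE, adjusted p = 0.52).

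Cell type markers also differed between the NRVM conditions. The 9 fibroblast markers in the table summed to 24942 to 26324 CPM with vehicle, 8451 to 8914 with ENPP1+ATP, 11730.3 to 12525 with AMP and 10552 to 11893 with ATP, and 6 of them were called lower with ENPP1+ATP and with ATP. Cardiomyocyte markers summed to 30332 to 31319 CPM with vehicle, 26301 to 27367 with ENPP1+ATP, 30227 to 31925 with AMP, a range that overlaps vehicle, and 17406 to 18612 with ATP. The p53 targets summed to 2026 to 2105 CPM with vehicle and 2999 to 3189 with ENPP1+ATP, 3260.4 to 3539 with AMP and 3561 to 3833 with ATP. A fall of a member in these cultures cannot be told apart from a fall in the share of the cells that express it, and the part of the markers in the result was not tested.

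**Figure D4:**
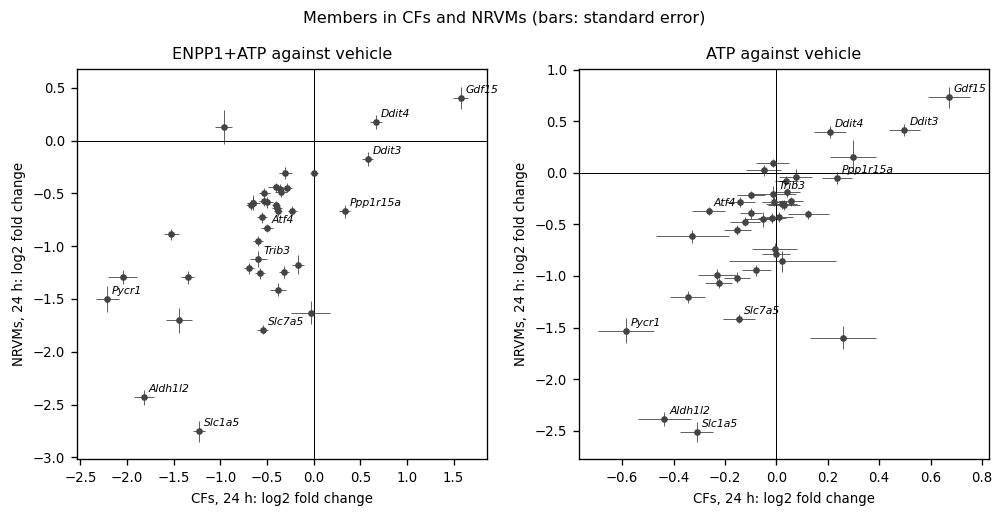
Log2 fold change against vehicle at 24 h of each member in CFs (horizontal axis) and NRVMs (vertical axis) for ENPP1+ATP (left) and ATP (right), with bars for the standard error. With ENPP1+ATP most points lie in the lower left, Gdf15 in the upper right and Ppp1r15a and Ddit3 in the lower right; with ATP many members lie near 0 in CFs and below 0 in NRVMs.

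CF and NRVM libraries share no samples, so their calls can be set against each other. With ENPP1+ATP at 24 h, 32 members were lower in both, which is 97.0% of the 33 lower in CFs and 88.9% of the 36 lower in NRVMs among members tested in both. Since 92.3% of those members were lower in NRVMs, an overlap near that share of the CF members follows from the counts alone. Among all 10945 genes tested in both, 46.8% of those lower in CFs were lower in NRVMs. The base was unlike here, since 3193 of the 10945 genes were lower in NRVMs. The shares of members and of all genes are therefore not directly comparable. With CFs at 48 h the number was 33, or 97.1% of 34 and 91.7% of 36 (39.5% of the CF genes over all genes). With AMP it was 30 at 24 h, or 96.8% of 31 and 83.3% of 36 (45.3% over all genes, of which 3257 were lower in NRVMs). Ddit3 and Ppp1r15a were called in opposite directions in CFs at 24 h and in NRVMs with both ENPP1+ATP and AMP, and Ddit3 at 48 h. The difference between the cell types was not itself tested, and the tables come from different species and were normalized apart.

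Other arms of the stress pathways were followed with lists of genes outside the 41. Their counts are to be read against the shares of all genes called, 49.1% in CFs at 24 h, 45.2% at 48 h and 56% in NRVMs. Of 16 tested genes for the eIF2 kinases and the eIF2 machinery, 4 were higher and 3 lower in CFs with ENPP1+ATP medium at 24 h, 5 higher and 2 lower at 48 h, and 6 higher and 8 lower in NRVMs, with medians of -0.01, 0.03 and -0.15, so the number called was near the share of all genes at 24 h and 48 h. At 48 h in CFs the eIF2 subunit gene Eif2s2 was -0.42 ± 0.06 (SE, adjusted p = 4.1e-06), the constitutive eIF2 phosphatase subunit gene Ppp1r15b -0.37 ± 0.05 (SE, adjusted p = 5.9e-07) and the mitochondrial protease gene Oma1 0.39 ± 0.14 (SE, adjusted p = 0.025). In NRVMs Eif2ak2, the kinase that senses double-stranded RNA, was 0.74 ± 0.07 (SE, adjusted p = 3.5e-12).

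Further ATF4 target genes outside the list were mixed. Of 25 tested in CFs with ENPP1+ATP medium, 13 were lower and 6 higher at 24 h and 14 lower and 6 higher at 48 h, and of 22 in NRVMs 12 were lower and 2 higher. Cth, which makes cysteine, was -2.17 ± 0.11 (SE, adjusted p = 1.7e-13) in CFs at 48 h and -2.69 ± 0.41 in NRVMs. Slc7a11, the cystine importer, was -2.12 ± 0.14 (SE, adjusted p = 4.2e-09) and -2.71 ± 0.11, and Slc1a4, a neutral amino acid transporter, -1.77 ± 0.08 (SE, adjusted p = 8.7e-15) and -1.08 ± 0.05. Cbs, which acts just upstream of Cth, rose in CFs instead (2.31 ± 0.20 SE, adjusted p = 5.7e-10).

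The other cytosolic synthetases followed those of the list in part, with 6 of 8 lower at 24 h, 4 lower and 1 higher at 48 h, and 5 lower and 1 higher in NRVMs. Farsb (-0.79 ± 0.07) and Vars (-0.49 ± 0.07) fell most at 24 h. The 16 mitochondrial synthetases, which are separate genes, had 5 higher and 4 lower in CFs at 24 h, near the share of all genes called, and 1 higher and 4 lower at 48 h, and 7 higher and 1 lower of 15 in NRVMs, with Pars2 (0.78 ± 0.11) and Vars2 (0.76 ± 0.07) among those that rose. Endoplasmic reticulum chaperone genes controlled by XBP1 and ATF6 had 10 of 23 lower and 4 higher in CFs at 24 h, 11 lower and 4 higher at 48 h, and 22 of 23 lower in NRVMs, where Pdia4 was -0.96 ± 0.05. The transcription factor gene Xbp1 was -1.25 ± 0.07 in CFs at 24 h and -0.49 ± 0.07 at 48 h. Mitochondrial chaperone and protease genes had 7 of 8 lower and 1 higher in CFs at 24 h, Hspa9 (-0.80 ± 0.06) lowest, and 4 of 8 lower at 48 h.

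In the injured hearts, the libraries held 7460 barcodes (ENPP1CKO) and 5347 (control), of which 68 were the same sequence in both. After removal of 151 and 71 predicted doublets and of low-quality barcodes, 7255 and 5238 cells were kept, with medians of 3367 and 3701 counts. Clustering left the members out, and classes were named from marker genes: 3715 and 1853 fibroblast-like cells (51.2% and 35.4%), 2054 and 2471 macrophage-like cells and 931 and 191 endothelial-like cells. With 1 library per genotype there is no test of the genotype. Values are summed counts of the class as CPM, ratios are ENPP1CKO over control, and intervals are exact 95% intervals that cover counting error only. Enpp1, the deleted gene, stood in fibroblast-like cells at 28.9 CPM in the ENPP1CKO library and 130.0 CPM in the control library (log2 ratio -2.17, interval -2.33 to -2.02).

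In fibroblast-like cells the ratio was below 0 for 29 and above 0 for 11 of the 40 members with at least 20 counts in both libraries together, where 48.7% of all genes with such counts were below 0. At a size of 1.5-fold or more, 7 members were lower in the ENPP1CKO library and 1 higher, where 7.57% of all genes with such counts were lower and 6.8% higher. The median log2 ratio was -0.18, against 0.01 for all genes. Over the summed list the ratio was -0.05 (-0.07 to -0.03).

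Of the 6 amino acid enzymes 5 had a ratio below 0, and Psat1 lay above it (log2 ratio 0.32, interval -0.19 to 0.84). All 4 one-carbon and carbon enzymes and 10 of the 12 synthetases had a ratio below 0. Phgdh stood at 26.2 CPM in the ENPP1CKO library and 45.3 CPM in the control library (log2 ratio -0.79, interval -0.98 to -0.60). Asns stood at 10.6 CPM in the ENPP1CKO library and 16.4 CPM in the control library (log2 ratio -0.63, interval -0.94 to -0.32), and the synthetase gene Iars at 9.21 CPM in the ENPP1CKO library and 14.0 CPM in the control library (log2 ratio -0.60, interval -0.94 to -0.26). Pck2 (log2 ratio -0.60, interval -0.82 to -0.38), Aldh18a1 (log2 ratio -0.60, interval -0.84 to -0.35), which starts proline synthesis, and Pycr1 (log2 ratio -0.49, interval -0.66 to -0.32) were also low in the ENPP1CKO library. Among members with fewer than 200 counts, Aldh1l2 had the lowest ratio (-1.38, interval -1.92 to -0.86) and Trib3 the highest (0.87, interval 0.11 to 1.68). Atf4 itself differed less, at 116 CPM in the ENPP1CKO library and 131 CPM in the control library (log2 ratio -0.17, interval -0.27 to -0.07).

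Vldlr stood at 11.8 CPM in the ENPP1CKO library and 8.20 CPM in the control library (log2 ratio 0.52, interval 0.15 to 0.91), the highest ratio among members with at least 200 counts, and with cells thinned to 1000 counts its ratio was 1.25. Ddit4 stood at 52.6 CPM in the ENPP1CKO library and 36.9 CPM in the control library (log2 ratio 0.51, interval 0.33 to 0.69). Cebpg, a C/EBP partner of ATF4, stood at 66.7 CPM in the ENPP1CKO library and 50.4 CPM in the control library (log2 ratio 0.41, interval 0.25 to 0.56). Ddit3 (log2 ratio 0.24, interval 0.12 to 0.37) was also above control. Gdf15 was low in both libraries, at 5.52 CPM in the ENPP1CKO library and 5.88 CPM in the control library (log2 ratio -0.09, interval -0.58 to 0.40), and Chac1 had only 19 and 12 counts.

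The class was made of different cells in the libraries. Of the fibroblast-like cells, the cluster led by Thbs4, C1qtnf3 and Cilp held 1657 ENPP1CKO and 235 control cells, and the cluster led by Col11a1, Sfrp2 and C1qtnf3 held 672 and 949. Within the first, the Phgdh ratio was -0.02 (-0.64 to 0.65) and the Atf4 ratio -0.06 (-0.30 to 0.19), and within the second they were -0.59 (-0.91 to -0.28) and -0.46 (-0.65 to -0.28). Within the cluster led by Clec3b, Sfrp2 and Vegfd they were -0.27 (-0.71 to 0.18) and -0.04 (-0.27 to 0.18). Pck2 was lower in all 3, at -0.65 (-1.16 to -0.10), -0.40 (-0.78 to -0.02) and -0.67 (-1.12 to -0.22), whereas the Ddit4 ratio was 0.02 (-0.34 to 0.39), 0.00 (-0.34 to 0.34) and 0.40 (0.02 to 0.78). Counts per cell also differed, with medians of 4055 and 5135, and RNA from macrophages was lower in the ENPP1CKO fibroblast-like cells. Lyz2 stood at 146 against 326 CPM, C1qa at 56.4 against 84.3, C1qb at 70.4 against 91.7 and C1qc at 35.0 against 54.3 CPM. Dissociation stress genes summed to 12144 and 13277 CPM. Their part in the ratios was not tested.

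**Figure D5:**
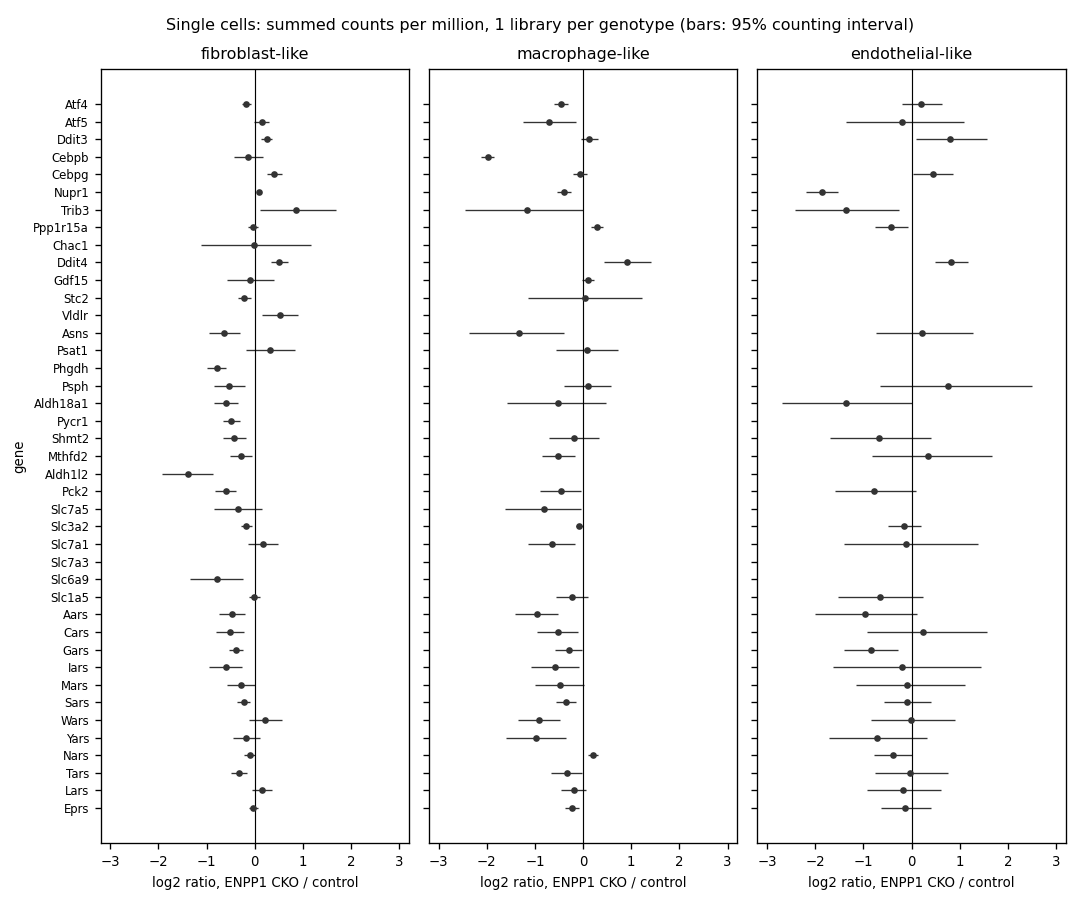
Log2 ratio of summed CPM, ENPP1CKO over control, with its exact 95% counting interval, for members (rows) with at least 20 counts in fibroblast-like, macrophage-like and endothelial-like cells, from 1 library per genotype. Phgdh, Asns and Pck2 lie left of 0 in fibroblast-like cells, Cebpb lies far left in macrophage-like cells and Nupr1 far left in endothelial-like cells.

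In macrophage-like cells 9 of 34 members with enough counts were lower by 1.5-fold or more and 1 higher, where 14.1% of all genes were lower and 4.34% higher by that size, and the median log2 ratio was -0.38 against -0.13 for all genes. Cebpb, a regulator of macrophage activation, stood at 72.6 CPM in the ENPP1CKO library and 286 CPM in the control library (log2 ratio -1.98, interval -2.12 to -1.84), and Atf4 at 87.6 CPM in the ENPP1CKO library and 120.3 CPM in the control library (log2 ratio -0.46, interval -0.60 to -0.31). Aars (log2 ratio -0.95, interval -1.41 to -0.51) and Wars (log2 ratio -0.92, interval -1.36 to -0.49) were also low, while Ppp1r15a (log2 ratio 0.28, interval 0.15 to 0.41) and Nars (log2 ratio 0.21, interval 0.10 to 0.31) were higher in the ENPP1CKO library.

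These values rest in large part on 1 cluster. This macrophage-like cluster numbered 53 ENPP1CKO and 824 control cells, and without it, an alternative chosen after seeing the data, 3 of 34 members were lower by 1.5-fold or more and 1 higher (7.31% and 5.24% of all genes), with a median of -0.14 against -0.05 for all genes. The Atf4 ratio was then -0.03 (-0.19 to 0.14) and the Cebpb ratio -0.35 (-0.55 to -0.16), with Cebpb at 56.4 and 72.0 CPM. Over the summed list the ratio was -0.27 (-0.31 to -0.24) with the cluster and -0.05 without it. Dissociation stress genes were higher in the ENPP1CKO macrophage-like cells, at 9948 against 7805 CPM, and their part was not tested.

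In endothelial-like cells, where 191 control cells limit the depth, 9 of 29 members with enough counts were lower by 1.5-fold or more and 3 higher, with 13.4% of all genes lower and 13.1% higher by that size. Nupr1, a small stress-induced nuclear protein gene, stood at 81.7 CPM in the ENPP1CKO library and 298 CPM in the control library (log2 ratio -1.87, interval -2.20 to -1.53), and Ddit4 at 273 CPM in the ENPP1CKO library and 154 CPM in the control library (log2 ratio 0.82, interval 0.49 to 1.17). The Atf4 ratio was 0.20 (-0.21 to 0.63), a difference not detectable at this depth. The class joined a cluster of 866 ENPP1CKO and 161 control cells, with a Nupr1 log2 ratio of -1.44 (-1.92 to -0.96), and one of 65 and 30 cells, with -1.63 (-2.13 to -1.14). With predicted doublets kept, the Nupr1 ratio of the class was -1.10. The cells also differed in depth, with medians of 1472 and 2597 counts, and dissociation stress genes summed to 8696 and 6774 CPM, whose part was not tested.

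Levels of single members differed between the classes in both libraries. With the ENPP1CKO value first and the control value second, Nupr1 reached 847 and 799 CPM in the fibroblast-like class. Stc2 reached 65.5 and 76.3 CPM there, but 1.82 and 1.77 CPM in the macrophage-like class. Phgdh read 0.701 and 1.65 CPM in macrophage-like cells, far under its fibroblast-like level. Gdf15 had the reverse pattern, at 130.2 and 121 CPM in macrophage-like cells and 5.52 and 5.88 CPM in the fibroblast-like class. For Stc2, Phgdh and Gdf15 the difference between these 2 classes was larger than the difference between the libraries within either.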

How the data were processed

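RNA-seq counts were available for 20 CF and 15 NRVM libraries, and single-cell RNA-seq counts for 2 libraries, 37 in all. The authors deposited raw counts per gene in every table. The submitters' processing notes name STAR 2.5.3a, Cell Ranger and the builds mm10 and rn6. The program that counted reads and whether it used strand are not given in the sources used here. No column of per-sample values was left unused (0). Genes with near-identical copies may share reads in such counts.

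Members and other gene lists were chosen with earlier results of these data known. Bulk counts were filtered with filterByExpr, scaled by TMM and fitted with edgeR 4.0.16 (R 4.3.3, limma 3.58.1), with 1 mean per medium and time over all libraries of a table, the quasi-likelihood test and Benjamini-Hochberg adjustment over all tested genes. Tests were two-sided. The count model the authors used is not given in the sources used here. Fitted replicate variation (biological coefficient) came to 0.0590 for CF and 0.0499 for NRVM libraries. The steps were tested on simulated data with known changes. Libraries were not treated as paired by replicate number. Same-numbered libraries had a mean correlation of deviations of 0.0172 in CFs (6 of 90 pairs over 0.1) and 0.000655 in NRVMs (1 of 30). With 2 libraries per CF group, each CF value occurs under both numbers. The highest was 0.277, between vehicle medium at 24 h and ENPP1 medium at 48 h. A mean over all pairs cannot exclude pairing within some groups. The named genes were those with the largest change among called members (up to 10 in CFs, 6 in NRVMs), Atf4, Ddit3, Trib3, Asns and Chac1 in any case, the extremes of each role, members that moved against their role, up to 3 genes of each other list, and in single cells the extremes among members with at least 200 counts. Mdm2 and Cdkn1a among the p53 targets, and the other members given with values, were chosen after their values were seen. A gene and a promoter stretch that these rules would show are not reported here.

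Barcodes with 200 or more detected genes and no more than 20% of counts from mitochondrial genes were kept after doublet calls, clustered with scanpy 1.11.5 and leidenalg 0.10.2 on 2000 variable genes without the members (30 components, 15 neighbours, resolution 0.5), and named from at least 3 markers. Exact Poisson and conditional binomial intervals (95%, scipy 1.17.1) cover counting error only. Between the single libraries, members were counted at a 1.5-fold size, a limit chosen after seeing the data. Alternatives were DESeq2 1.42.0, its size factors in edgeR, no filter, a replicate block, leaving out each library, cells thinned to 1000 counts, a stricter cell filter (500 genes, 10% mitochondrial) and resolution 1.0.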

Additional observations from a re-analysis of the deposited data

Results flagged for a closer look

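The effect of ENPP1+ATP medium in CFs differed between 24 h and 48 h by a test of the difference itself (edgeR) in 22 members that were lower and 1 that was higher at 48 h. The differences of log2 fold changes were -0.70 for Atf4, -0.39 for Ddit3, -1.71 for Trib3, -0.70 for Asns and -1.50 for Chac1. For AMP medium 34 members had a lower effect at 48 h, with -0.89 for Atf4, -0.84 for Ddit3, -1.82 for Trib3, -0.96 for Asns and -1.62 for Chac1. Both media are compared with the same vehicle libraries.

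Ppp1r15a and Ddit3 moved in opposite directions in the cell types, with every library of one group above its vehicle and every library of the other below. With ENPP1+ATP, Ppp1r15a was 0.33 in CFs at 24 h and -0.67 in NRVMs. With AMP, Ppp1r15a was 0.87 and -0.62, and Ddit3 was 1.03 and -0.21. The difference between the cell types was not tested.

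In single cells the log2 ratio of ENPP1CKO over control for Nupr1 was 0.085 among fibroblast-like cells, -0.40 among macrophage-like cells and -1.87 among endothelial-like cells. The Ppp1r15a ratio was 0.28 among macrophage-like cells but -0.42 among endothelial-like cells. Without the cluster of 53 and 824 cells the Nupr1 ratio among macrophage-like cells was -0.09. The endothelial-like Nupr1 ratio was less extreme within each of its clusters and with predicted doublets kept. After thinning, the fibroblast-like Nupr1 ratio changed sign. These differences between classes were not tested, since each genotype had 1 library. Whether 1 library lies far from the others of its group of 2 or 3 was not tested.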

How the results depend on the processing

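Of 8634 values of single members under an alternative setting, 8350 kept their direction and side of the threshold, 215 lost the call, 69 gained it and 0 reversed. Counts that moved by over 1.5 times were small ones. With the replicate block, ENPP1+ATP against ATP medium at 48 h left 2 members higher, vehicle at 48 h against 24 h left 1 higher, and the ENPP1+ATP effect between the times was higher in 2. The block changed no other count of members by that much, and same-numbered libraries showed little correlation on average. DESeq2 gave the same 2, 1 and 2. Its size factors in edgeR gave 2 and 1 for the first pair, and no filter gave 1 and 2 for the last pair. Without a filter AMP against ENPP1+ATP left 2 members lower in CFs at 48 h and 2 in NRVMs. Leaving out 1 library at a time gave, for members called, AMP against ENPP1+ATP at 24 h 3 to 11 higher and 0 to 1 lower, ATP against vehicle at 24 h 2 to 4 higher and 2 to 6 lower and at 48 h 2 to 3 higher and 2 to 11 lower, AMP against ATP at 48 h 1 to 2 higher, vehicle at 48 h against 24 h 0 to 1 higher and 0 to 0 lower, the ENPP1+ATP effect between times 0 to 1 higher, and NRVM ENPP1+ATP 1 to 2 higher. Where a CF group was left with 1 library, it was assumed to vary like the other groups. The smaller number of libraries is part of that construction, and otherwise the cause was not tested. In single cells the summed list's log2 ratio was -0.089, -0.39 and -0.090 in fibroblast-like, macrophage-like and endothelial-like cells after thinning to 1000 counts, and -0.050 in macrophage-like cells with the cluster of 53 and 824 cells left out, an alternative chosen after seeing the data. Among members with at least 200 counts and an interval that left out 0, thinning reversed Nupr1 in fibroblast-like cells (-0.0091) and Slc3a2 in macrophage-like cells (0.011). Of these classes the endothelial-like one had the fewest control cells, 191, which limits its depth.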
